A study of Mus musculus with 20 samples.

Results

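The 41 genes described here are a set of endothelial genes, named one by one, that encode proteins and regulators of the cells lining blood vessels. They were found by gene name among the 27670 named genes of the array, older synonyms allowed, and the probe with the brightest mean heart signal stood for each gene. All 41 were among the 14567 genes tested, and their heart signal was well above background on 19 or all of the 20 arrays. The hearts came from mice with the ubiquitin ligase gene MuRF1 (Trim63) intact (MuRF1 +/+) or deleted (MuRF1 -/-); the labels do not say in which cells or how it was deleted. In each genotype 3 hearts came from mice on chow for 8 weeks (CHOW), 4 from mice on chow with 0.05% fenofibrate by weight for 3 weeks (3WK FENO) and 3 from mice on that diet for 8 weeks (8WK FENO). Fenofibrate is a drug that activates the nuclear receptor PPARα. The mice were matched for strain, and their ages are given only as a range for the whole study. The 3-week hearts have no chow group of their own duration, so 3 weeks of fenofibrate was compared with 8 weeks of chow. Each array carried 1 heart, labelled red, against a pool of whole newborn C57BL/6 pups of postnatal day 1, labelled green, and a level below is the log2 ratio of heart to that pool. A positive level means that the gene's signal was higher in the heart than in the pup pool, and a difference of 1 between hearts is a factor of 2 in signal.

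Endothelial cells are the most numerous non-muscle cells of the heart, and their capillaries run along nearly every muscle fibre. They hold together through VE-cadherin and claudin-5, respond to vascular endothelial growth factor and angiopoietins through receptor tyrosine kinases, and set vessel tone, clotting and fatty acid transfer to the muscle. ETS factors such as Erg and Fli1 and SoxF factors such as Sox17 and Sox18 keep their identity, and Klf2 and Klf4 are switched on by blood flow.

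The labelled genotypes matched the targeted gene: Trim63 ranged from 0.79 to 2.85 in MuRF1 +/+ hearts and from -1.19 to -0.49 in MuRF1 -/- hearts. The median of 12 cardiomyocyte markers was 1.33 to 3.52 over the hearts. The array of 8WK FENO MuRF1 +/+ replicate 2 stood apart. It had the highest level of the 20 hearts for 37 of the 41 endothelial genes, against 19.8% of all tested genes, the lowest Trim63 level of its genotype (0.79) and 34% of its probes well above background, where the others had 34.3% to 51.9%. The array of 3WK FENO MuRF1 -/- replicate 4, at 34.3%, also stood apart, and was the highest for 0 members. Calls, differences and medians that rest on replicate 2 are also given without it, whereas counts of genes without overlap and of unadjusted p are from all hearts. The Y-linked genes Ddx3y and Eif2s3y were both well above background in all 3 chow hearts of each genotype, in 0 of the 4 3-week hearts of either genotype, in 0 of 3 8-week MuRF1 +/+ hearts and in 2 of 3 8-week MuRF1 -/- hearts. Xist ranged from -4.24 to -3.49 in the chow hearts and from -0.5 to 0.2 in the 3-week hearts. At 8 weeks it ranged from -2.7 to -0.9 in MuRF1 +/+ and from -4.05 to -2.72 in MuRF1 -/- hearts. Fenofibrate and this sex-linked difference therefore cannot be told apart at 3 weeks in either genotype or at 8 weeks in MuRF1 +/+. In Xist the 8-week hearts also differed from the 3-week hearts in both genotypes, and the genotypes differed at 8 weeks. Differences in those comparisons cannot be told apart from the sex-linked difference either. In bulk hearts, fewer endothelial cells and less RNA of a gene per cell cannot be told apart either.

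On chow, 26 of the 41 genes were above the pup pool in all 6 hearts and 8 were below it in all 6. Flt1, the decoy receptor for vascular endothelial growth factor, lay at 1.66 to 1.84, and Mmrn2, a matrix protein of the vessel wall, at 1.27 to 1.68. The 8 genes below the pool were Cldn5, Tal1, Klf4, Plvap, Calcrl, Ednrb, Lyve1 and Cav1; Cldn5, which seals endothelial junctions, lay at -1.48 to -0.92, and Cav1, the coat protein of caveolae, at -1.4 to -0.94. No difference between the genotypes was called on chow. Of the 41 members 0 passed the threshold (limma, Benjamini-Hochberg adjusted p under 0.05 over all tested genes; 0.0892% of all genes passed it), 1 had an unadjusted p under 0.05 (3.18% of all genes had), and the median difference of MuRF1 -/- from MuRF1 +/+ was 0, against 0.003 over all genes.

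**Figure D1:**
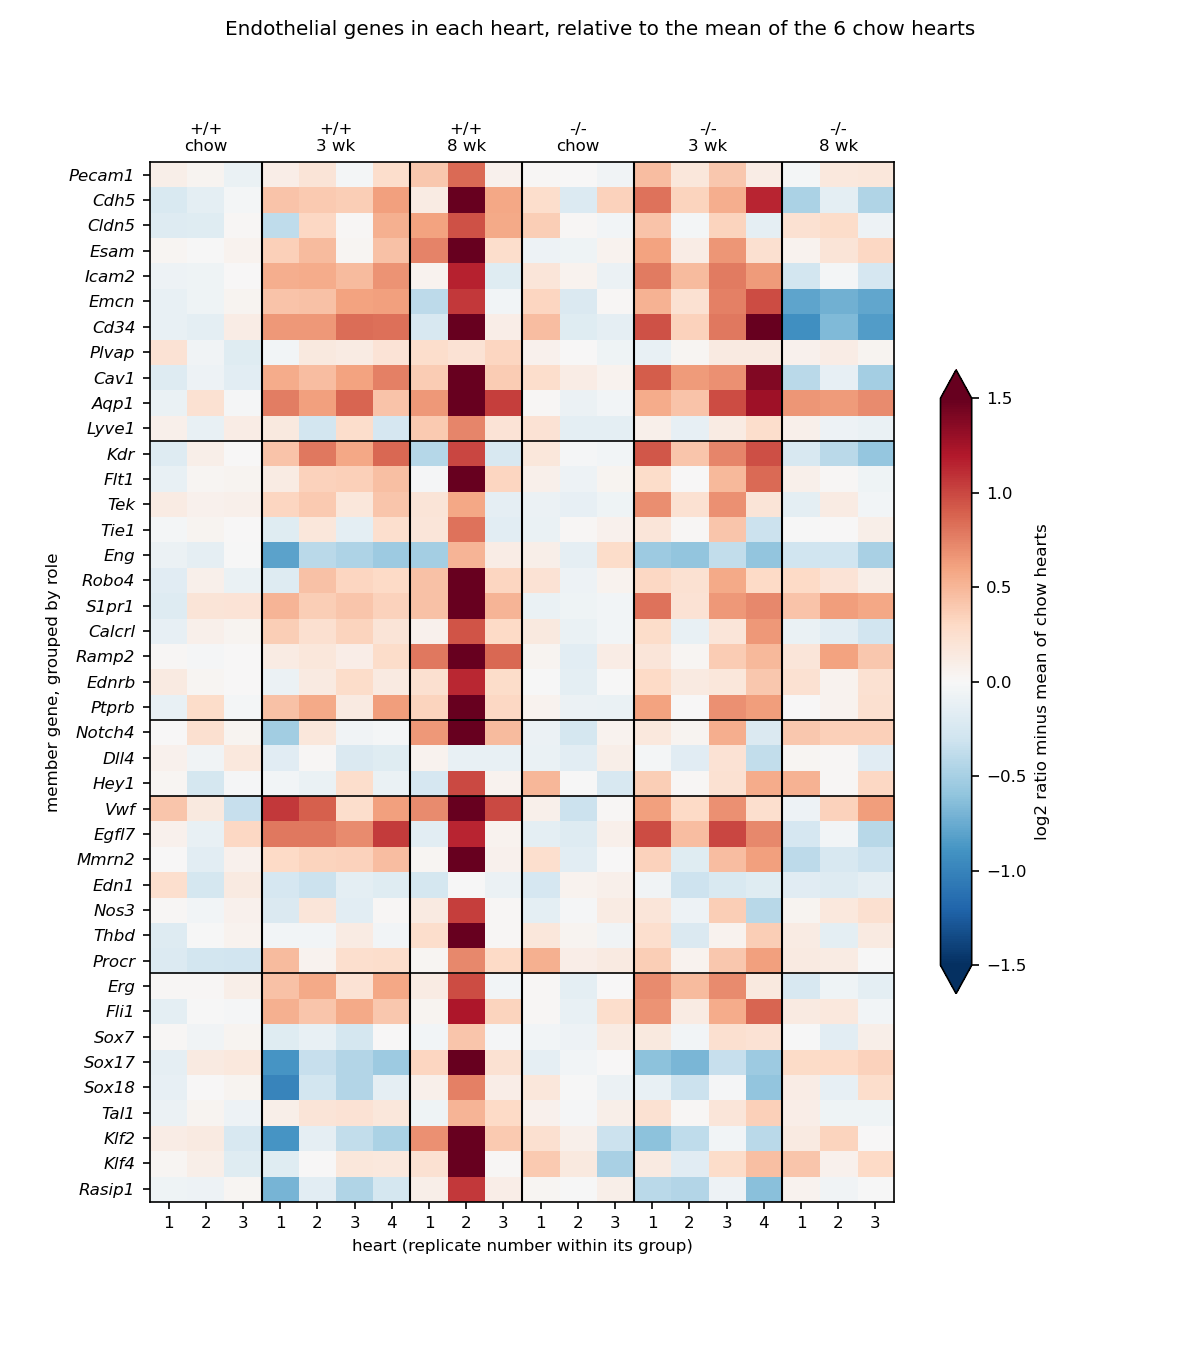
Level of each of the 41 endothelial genes (rows, grouped by role) in each of the 20 hearts (columns, by genotype, diet and replicate number), as the log2 ratio minus the mean of the 6 chow hearts; the colour scale ends at -1.5 and 1.5. The column of 8WK FENO MuRF1 +/+ replicate 2 is the highest for 37 genes; among the other fenofibrate hearts, Kdr, Egfl7, Icam2, Emcn and Cd34 are high and Eng, Sox17 and Klf2 low at 3 weeks.

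At 3 weeks of fenofibrate few endothelial genes passed the test, some higher and 1 lower in each genotype. In MuRF1 +/+ hearts 5 of 41 rose, Kdr, Egfl7, Icam2, Vwf and Procr, and 1 fell, Eng. That compares with 12% of all tested genes that rose and 12.3% that fell. In MuRF1 -/- hearts 7 rose, Kdr, Egfl7, Icam2, Cd34, Cav1, Erg and Tek, and 1 fell, again Eng, against 14.3% and 12.1% of all genes. The 3-week hearts did not overlap the chow hearts for 18 members in the higher and 4 in the lower direction in MuRF1 +/+ (23.4% and 22% of all genes), and for 13 and 3 in MuRF1 -/- (17.3% and 14.8%). In each genotype 14 members had an unadjusted p under 0.05 (36.3% and 37.6% of all genes). The members' median difference was 0.23 in MuRF1 +/+ and 0.28 in MuRF1 -/-, with medians over all genes of 0.01 and -0.008.

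Kdr, the main signalling receptor for vascular endothelial growth factor, was at 0.62, 0.9 and 0.82 in the MuRF1 +/+ chow hearts and at 1.24, 1.61, 1.39 and 1.68 at 3 weeks. In MuRF1 -/- it was at 0.98, 0.8 and 0.77 on chow and at 1.75, 1.23, 1.55 and 1.78 at 3 weeks. In both genotypes every 3-week heart lay above every chow heart, and the difference was 0.70 ± 0.24 (SE; 1.62-fold, limma adjusted p = 0.0383) in MuRF1 +/+ and 0.73 ± 0.24 (1.65-fold, adjusted p = 0.0294) in MuRF1 -/-. Egfl7, a protein that endothelial cells secrete into their matrix, was at 0.06 to 0.48 on chow and 0.88 to 1.22 at 3 weeks in MuRF1 +/+, and at -0.03 to 0.24 and 0.63 to 1.17 in MuRF1 -/-. It rose by 0.75 ± 0.22 (1.68-fold, adjusted p = 0.0202) and 0.88 ± 0.22 (1.84-fold, adjusted p = 0.00723). Icam2, an adhesion molecule of endothelial junctions, rose by 0.60 ± 0.20 (1.52-fold, adjusted p = 0.0378) and 0.62 ± 0.20 (1.54-fold, adjusted p = 0.0303), again with no overlap between chow and 3-week hearts.

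Eng, a co-receptor for transforming growth factor β and bone morphogenetic proteins, went the other way. In MuRF1 +/+ its levels were 0.93, 0.89 and 1.01 in the chow hearts and 0.22, 0.62, 0.56 and 0.48 in the 3-week hearts; in MuRF1 -/- they were 1.11, 0.88 and 1.3, then 0.47, 0.43, 0.65 and 0.43. It fell by 0.47 on the log2 scale in MuRF1 +/+ (SE 0.17, adjusted p = 0.046) and by 0.60 in MuRF1 -/- (SE 0.17, adjusted p = 0.0128), with no overlap in either. Sox17, a factor of arterial endothelium, and Klf2, the flow-induced factor, were also lower without passing the test: Sox17 by -0.61 and -0.50, and Klf2 by -0.47 and -0.36, in MuRF1 +/+ and MuRF1 -/-. A dimmer probe of Klf2, above background on all 20 arrays, passed: it fell by 1.91 on the log2 scale (limma adjusted p over all probes = 0.000932) and by 2.12 (adjusted p = 0.000367).

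The remaining calls at 3 weeks each passed in 1 genotype by the probe that stood for the gene. Cd34, a sialomucin of capillary surfaces, differed by 0.79 in MuRF1 +/+ (adjusted p = 0.0717) and rose by 0.85 ± 0.31 (1.81-fold, adjusted p = 0.0493) in MuRF1 -/-, where 3WK FENO replicate 2, at -0.05, lay below the chow heart at 0.07. Cav1 rose by 0.75 ± 0.27 in MuRF1 -/- (adjusted p = 0.044) and differed by 0.74 in MuRF1 +/+ (adjusted p = 0.0508), with no overlap in either genotype. Tek, the angiopoietin receptor Tie2, was at 0.1, 0.07 and 0.13 in MuRF1 -/- chow hearts and 0.89, 0.42, 0.88 and 0.38 at 3 weeks, and Erg at 0.33, 0.16 and 0.31, then 1.02, 0.78, 1.01 and 0.45; in neither did the groups overlap. Tek rose by 0.54 ± 0.14 (1.46-fold, adjusted p = 0.00885) and Erg by 0.55 ± 0.18 (1.46-fold, adjusted p = 0.0309) in MuRF1 -/-. Vwf, which carries platelets to vessel walls, rose by 0.64 ± 0.23 (adjusted p = 0.0488) in MuRF1 +/+ although the groups overlapped, and Procr, the receptor of protein C, by 0.51 ± 0.15 (1.43-fold, adjusted p = 0.0181). Procr also had the largest member difference between the genotypes on chow, 0.51 higher in MuRF1 -/- and not called. In MuRF1 -/- it was at -0.28 to 0.16 on chow and -0.32 to 0.24 at 3 weeks. Some calls at 3 weeks were kept in fewer than 15 of 31 alternative settings: Cav1 in 10 and Cd34 in 9 in MuRF1 -/-, and Eng in 11 and Vwf in 13 in MuRF1 +/+. Of the 20 settings that leave out 1 heart, they were kept in 5, 5, 7 and 7. The other probes of Cav1 and Erg differed by 0.12 and 0.13 in MuRF1 -/- (limma adjusted p over all probes = 0.372 and 0.174), that of Erg being above background on 9 arrays. That of Vwf differed by 0.33 in MuRF1 +/+ (adjusted p = 0.32), while that of Tek rose by 0.61 in MuRF1 -/- (adjusted p = 0.000311). This probe of Tek, above background on 14 arrays, also rose in MuRF1 +/+, by 0.34 (adjusted p = 0.0203). From 3 to 8 weeks it changed by -0.32 there (adjusted p = 0.0412). The differences of the 3-week responses between the genotypes were tested directly: 0 of 41 members and 0% of all genes passed, 0 members had an unadjusted p under 0.05 (2.45% of all genes had), and the 95% intervals lay within -0.99 to 1.34. The comparisons of the genotypes share no heart. Across the 41 genes, which share arrays and are not independent, the responses correlated with r = 0.92 (Pearson) and rho = 0.89 (Spearman), against 0.9 and 0.85 across all 14567 genes, and 37 members had the same sign (90.2%, against 81.5% of all genes). The 4 members called in both, Egfl7, Eng, Icam2 and Kdr, were 66.7% of the 6 called in MuRF1 +/+ and 50% of the 8 called in MuRF1 -/-; for all genes these shares were 74.1% and 67.9%.

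**Figure D2:**
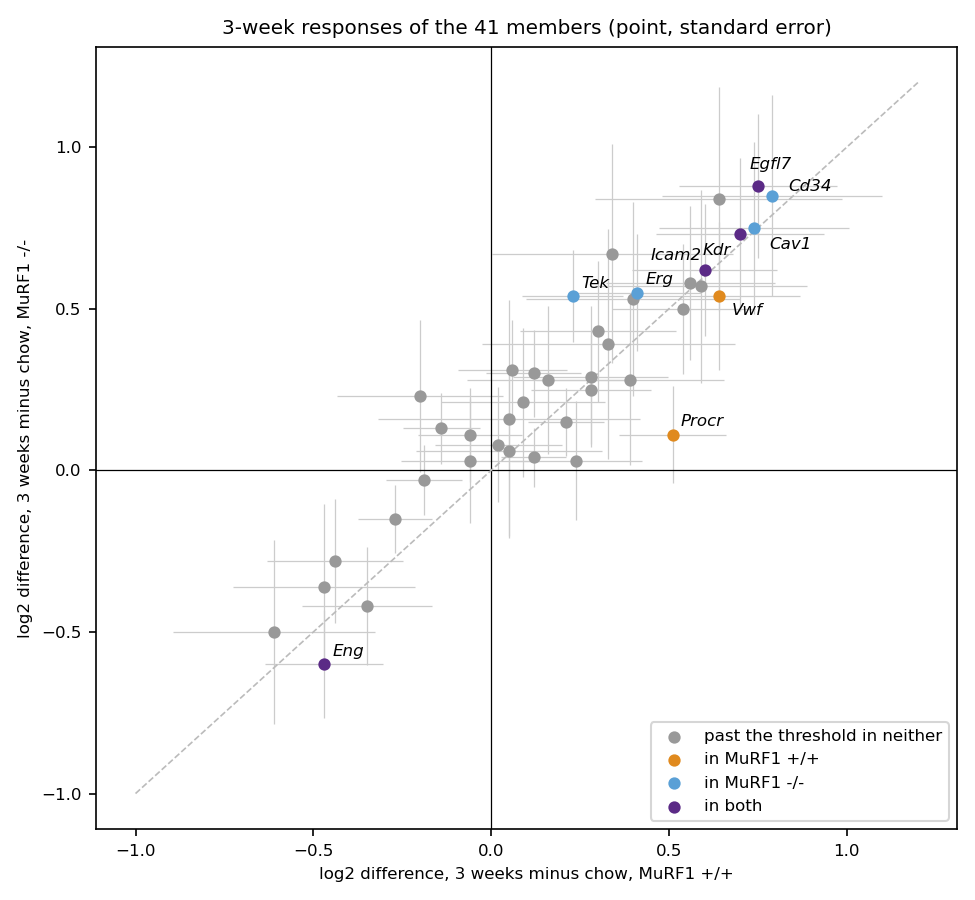
Difference between 3 weeks of fenofibrate and chow (log2 ratio) for the 41 endothelial genes in MuRF1 +/+ (horizontal axis) and MuRF1 -/- (vertical axis), with standard errors; the dashed line marks equal differences and colours mark which genotype's test was passed. Egfl7, Kdr and Icam2 lie at the upper right and Eng at the lower left, past the threshold in both genotypes.

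All arrays share 1 estimate of spread per gene, so the 8-week heart that stood apart enters the error of the 3-week comparisons too: the SE of Kdr's 3-week difference was 0.24 with it and 0.13 without it. Without 8WK FENO MuRF1 +/+ replicate 2, which leaves the 3-week differences themselves as they were, 15 members rose and 4 fell in MuRF1 +/+ (15.4% and 15.2% of all genes) and 17 rose and 3 fell in MuRF1 -/- (17.4% and 15.3%). The 15 called in both genotypes then included Aqp1, Cd34, Cdh5, Emcn, Erg and Fli1 among those higher and Eng, Sox17 and Rasip1 among those lower. Emcn, a sialomucin of capillaries and veins, is an example: it was at 1.33, 1.34, 1.51 and 1.52 at 3 weeks in MuRF1 +/+, above all its chow hearts (0.79, 0.84 and 0.95), and the difference of 0.56 had an adjusted p of 0.0927 with replicate 2 in the fit and 0.00724 without it. Fli1, an ETS factor, was at 0.48 to 0.62 in MuRF1 +/+ chow hearts and 1.03 to 1.2 at 3 weeks, with no overlap. Leaving out other hearts lowered the counts: in MuRF1 +/+ to 1 without 3WK FENO replicate 4, CHOW replicate 2 or CHOW replicate 3, to 2 without 3WK FENO replicate 1 or CHOW replicate 1, and to 3 without 3WK FENO replicate 2 or 3, while it was 10 without 8WK FENO replicate 1. In MuRF1 -/- it was 2 without CHOW replicate 3, 3 without CHOW replicate 2 or 3WK FENO replicate 1 and 5 without 3WK FENO replicate 3 or 4. For the counts without these other hearts the shares of all genes are not given. With the mean of the Y-linked genes as a covariate, 0 members passed at 3 weeks in either genotype, and the medians were 0.262 and 0.268. That mean was 1.18 to 1.61 in the chow hearts and -1.39 to -0.24 in the 3-week hearts. The covariate thus largely follows the diet and cannot be separated from it.

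Kdr, Emcn, Cd34 and Egfl7 are shown with the 250 bases before their start sites. They were chosen after their values were seen. Each had a positive 3-week difference in both genotypes and, as given below, fell from 3 to 8 weeks in MuRF1 -/-. Cav1, Cdh5, Icam2, Erg and Tek shared that course and are not shown. The sequences are from RefSeq on mouse build GRCm38.p6, 5′ to 3′ on the gene's strand: Kdr at chr5:75978456-75978705 (minus strand), Emcn at chr3:137340828-137341077 (plus), Cd34 at chr1:194938571-194938820 (plus) and Egfl7, the first of 3 listed starts, at chr2:26580833-26581082 (plus). Capitals mark GGAA and its reverse complement TTCC, the core that ETS factors such as Erg and Fli1 bind.
Kdr: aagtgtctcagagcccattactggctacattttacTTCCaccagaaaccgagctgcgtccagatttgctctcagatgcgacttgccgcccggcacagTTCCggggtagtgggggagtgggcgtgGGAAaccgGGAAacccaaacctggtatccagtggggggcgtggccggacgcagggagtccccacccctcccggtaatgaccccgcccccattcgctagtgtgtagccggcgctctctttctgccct
Emcn: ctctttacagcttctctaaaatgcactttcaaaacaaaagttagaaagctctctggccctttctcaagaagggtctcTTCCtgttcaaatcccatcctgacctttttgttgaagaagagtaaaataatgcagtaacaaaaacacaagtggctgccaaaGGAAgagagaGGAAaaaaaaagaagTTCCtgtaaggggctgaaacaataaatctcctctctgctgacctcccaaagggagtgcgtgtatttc
Cd34: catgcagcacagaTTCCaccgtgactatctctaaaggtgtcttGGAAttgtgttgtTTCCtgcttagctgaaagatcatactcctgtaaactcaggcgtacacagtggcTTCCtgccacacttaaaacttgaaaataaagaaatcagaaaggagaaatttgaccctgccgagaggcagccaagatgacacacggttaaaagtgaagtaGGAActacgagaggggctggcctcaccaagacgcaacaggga
Egfl7: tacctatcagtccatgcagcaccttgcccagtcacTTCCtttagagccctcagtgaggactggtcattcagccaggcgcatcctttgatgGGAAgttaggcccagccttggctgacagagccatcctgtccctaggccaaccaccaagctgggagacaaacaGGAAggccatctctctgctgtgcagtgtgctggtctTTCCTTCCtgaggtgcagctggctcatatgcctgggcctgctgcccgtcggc
The core occurs 4 times before Kdr, 4 before Emcn, 5 before Cd34 and 5 before Egfl7. Such a short core is found almost anywhere: 93.1% of the 29 windows listed for 23 members held it, as did 93.4% of all 32851 windows of that length. Searched on both strands, the longer ETS form AGGAAG was in 44.8% of the members' windows and 29.5% of all, CAGGAAG, which contains it, in 31% and 10.8%, and CAGGAAGT in 3.45% and 2.69%. The forms CCGGAAG and ACCGGAAG were in 0% of the members' windows and in 6.91% and 1.72% of all, and GGAAAC in 27.6% and 16.3%. The KLF core CACCC was in 65.5% and 52%, and CCCCACCC, which contains it, in 24.1% and 9.05%; the SOX words ACAAAG and AACAAT were in 10.3% and 13.8% against 16.5% and 9.42%. GATAA was in 13.8% and 22.6%, AGATAA in 6.9% and 9.99%, CACGTG in 3.45% and 6.02%, and TGACCTTTG in 0% and 0.426%. These are letter matches in 15 overlapping words and describe the windows only.

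After 8 weeks of fenofibrate, 12 of 41 endothelial genes were past the threshold in MuRF1 +/+ hearts, all higher (5.26% of all genes rose and 8.74% fell), but 10 of these calls depended on replicate 2. An unadjusted p under 0.05 was found for 25 members (32.3% of all genes), and the 8-week hearts lay above all chow hearts for 20 members and below them for 0 (13.4% and 16.1% of all genes). The 12 spanned junction and surface proteins (Cdh5, Cldn5, Esam, Aqp1, Cav1), receptors (Ramp2, S1pr1, Robo4), Notch4, the coagulation proteins Vwf and Procr, and Klf2. Without replicate 2 only Aqp1 and Ramp2 passed (2.47% of all genes then rose), and the members' median difference fell from 0.49 to 0.183, with medians over all genes of 0.029 and 0.013.

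Ramp2, the partner that turns the receptor Calcrl into a receptor for adrenomedullin, was at 0.09, 0.06 and 0.08 in the MuRF1 +/+ chow hearts and at 0.86, 2.26 and 0.94 at 8 weeks, replicate 2 being the highest. All 3 fenofibrate hearts lay above the chow hearts. It rose by 1.28 ± 0.25 (2.42-fold, limma adjusted p = 0.00281), and by 0.82 (adjusted p = 0.00133) without replicate 2. Aqp1, the water channel of capillary endothelium, was at 0.99, 1.32 and 1.07 on chow and 1.74, 4.03 and 2.13 at 8 weeks. It rose by 1.51 ± 0.37 (2.84-fold, adjusted p = 0.0127), and by 0.81 (adjusted p = 0.0197) without replicate 2. Its call, unlike that of Ramp2, was also lost without CHOW replicate 1 or 3.

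Cdh5, the adhesion protein VE-cadherin, lost its call without replicate 2: it was at 0.37, 0.45 and 0.57 on chow and at 0.72, 2.65 and 1.18 at 8 weeks, a rise of 1.06 ± 0.32 (2.08-fold, adjusted p = 0.035) that was 0.49 (adjusted p = 0.171) without replicate 2. Cldn5 was at -1.48, -1.46 and -1.26 on chow and -0.68, -0.33 and -0.71 at 8 weeks. It rose by 0.83 ± 0.20 (1.78-fold, adjusted p = 0.0109), and replicate 2 was closer to its group here, with 0.71 (adjusted p = 0.0547) without it. Vwf was at 0.73, 0.46 and -0.04 on chow and 1.02, 1.85 and 1.3 at 8 weeks, a rise of 1.01 ± 0.24 (2.01-fold, adjusted p = 0.0117) and 0.78 (adjusted p = 0.0687) without replicate 2.

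Klf2 rose by 0.97 ± 0.28 (1.96-fold, adjusted p = 0.0254), Cav1 by 1.04 ± 0.29 (2.05-fold, adjusted p = 0.0223) and Notch4, the Notch receptor of endothelium, by 0.87 ± 0.25 (1.83-fold, adjusted p = 0.0277). S1pr1, the receptor for sphingosine-1-phosphate, Esam, a junction protein, Robo4, a guidance receptor that stabilises vessels, and Procr rose by 1.14, 0.88, 0.84 and 0.60. For S1pr1, at 0.29, 0.67 and 0.69 on chow and 0.92, 3.14 and 0.99 at 8 weeks, replicate 2 lay far above both other hearts; for Procr, at -0.58, -0.65 and -0.66 on chow and -0.34, 0.34 and -0.08 at 8 weeks, all 3 hearts lay above the chow hearts. The call of S1pr1 was kept in 8 of 31 alternative settings. The other probes of Cdh5 and Cav1 differed by 0.25 and 0.27 (limma adjusted p over all probes = 0.151 and 0.0856). Those of Klf2 and Vwf differed by 0.69 and 0.68 (adjusted p = 0.226 and 0.0688), so none of these probes passed. Without replicate 2 the 10 lost calls had differences between 0.41 and 0.78 and adjusted p between 0.0547 and 0.171; none turned negative. The count was 26 without 8WK FENO replicate 1, 20 without 8WK FENO replicate 3, 5 without CHOW replicate 1 and 2 without CHOW replicate 3. It was 0 when only these 6 hearts were fitted and 0 with the Y-linked covariate, where the members' median was 0.61. The shares of all genes are not given for these counts, which show only how the calls depend on the hearts and the model. Here too the covariate cannot be separated from the diet.

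Of the genes most used to mark endothelium, Pecam1, an adhesion molecule on all endothelial cells, did not pass: it was at 0.05, 0.01 and -0.13 on chow and 0.37, 0.81 and 0.03 at 8 weeks (0.43 ± 0.14, adjusted p = 0.0539). Flt1 was at 1.66, 1.8 and 1.81 on chow and at 1.75, 4.15 and 2.09 at 8 weeks, so that only replicate 2 was far from the chow hearts. Tie1, the partner of Tek, was at 0.47, 0.54 and 0.51 on chow and 0.68, 1.31 and 0.34 at 8 weeks, and Tek was at 0.31, 0.26 and 0.27 on chow and 0.38, 0.77 and 0.06 at 8 weeks. For Flt1, Tie1 and Tek the lowest 8-week heart was below the highest chow heart.

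In 8-week MuRF1 -/- hearts 0 of 41 endothelial genes passed (limma; 0.851% of all genes rose and 0.982% fell), 3 had an unadjusted p under 0.05 against 12.7% of all genes, and the median difference was 0.02. Without 8WK FENO MuRF1 +/+ replicate 2, which enters only the estimate of spread here, 2 rose and 2 fell (1.86% and 2.23% of all genes). Aqp1 was at 1.11, 1 and 1.05 on chow and 1.75, 1.73 and 1.8 at 8 weeks, and S1pr1 at 0.38, 0.42 and 0.44 on chow and 0.91, 1.11 and 1.06 at 8 weeks; both were higher in all 3 hearts, by 0.70 and 0.61. Emcn was at 1.23, 0.69 and 0.92 on chow and only 0.11, 0.18 and 0.12 at 8 weeks (-0.81), and Cd34 at 0.07, -0.58 and -0.53 on chow and -1.32, -1.06 and -1.23 at 8 weeks (-0.86). For these 4 genes the chow and 8-week hearts did not overlap, a pattern found in 6 members in the higher and 7 in the lower direction (10.5% and 14.1% of all genes).

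**Figure D3:**
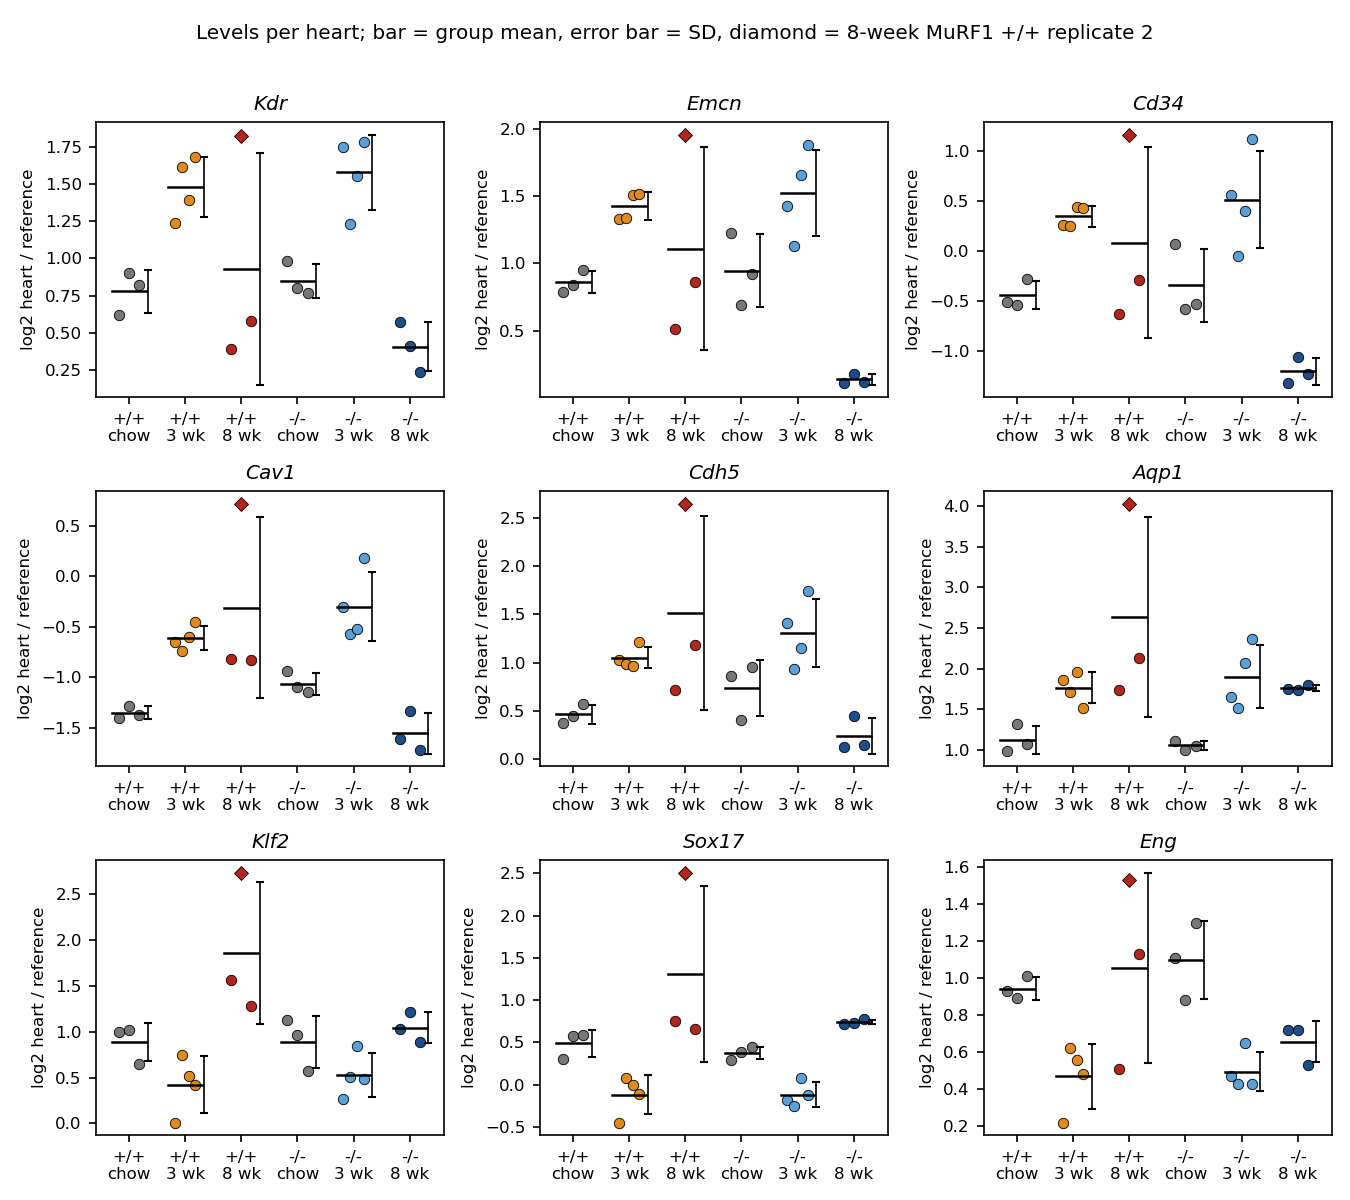
Levels of 9 endothelial genes in the 20 hearts (log2 ratio of heart to pup pool, vertical axes with their own ranges), by genotype and diet; points are hearts, horizontal bars group means, error bars SD (n = 3 or 4) and the diamond is 8WK FENO MuRF1 +/+ replicate 2. In MuRF1 -/-, the group means of Kdr, Emcn, Cd34 and Cav1 are highest at 3 weeks and lowest at 8 weeks, while Klf2, Sox17 and Eng are low at 3 weeks in both genotypes.

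The difference farthest from 0 in all 11 comparisons, that of Cd34, was between 8 and 3 weeks of fenofibrate in MuRF1 -/- hearts, where 9 of 41 endothelial genes fell and 1 rose (18% of all genes fell and 13.5% rose). Those that fell were Cd34, Emcn, Cav1, Kdr, Cdh5, Egfl7, Icam2, Erg and Tek, and the 1 that rose was Sox17. By role, 5 of 11 junction and surface proteins fell, 2 of 11 receptors, 1 of 7 secreted or coagulation proteins, and 1 of 9 transcription factors and Rasip1, with 0 of 3 Notch pathway genes. The members' median was -0.16, against 0.001 over all genes, and 14 had an unadjusted p under 0.05 (41.7% of all genes).

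Cd34 was at 0.56, -0.05, 0.4 and 1.12 at 3 weeks and at -1.32, -1.06 and -1.23 at 8 weeks, a change of -1.71 ± 0.31 (3.28-fold lower, limma adjusted p = 0.00049). Emcn was at 1.43, 1.13, 1.66 and 1.88 at 3 weeks and at 0.11, 0.18 and 0.12 at 8 weeks, a change of -1.38 ± 0.24 (2.61-fold lower, adjusted p = 0.000306). Cav1 was at -0.3, -0.57, -0.52 and 0.18 at 3 weeks and at -1.61, -1.33 and -1.72 at 8 weeks, a change of -1.25 ± 0.27 (2.37-fold lower, adjusted p = 0.00182). For each of these 3 genes the gap between the groups was wider than the range within the 8-week hearts. The 3-week hearts varied more, and for Cd34 their range, -0.05 to 1.12, was wider than the gap.

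Kdr was at 0.57, 0.41 and 0.24 at 8 weeks and changed by -1.17 ± 0.24 (2.25-fold lower, adjusted p = 0.00114). Cdh5, at 1.41, 0.93, 1.15 and 1.74 at 3 weeks and 0.12, 0.45 and 0.15 at 8 weeks, changed by -1.07 ± 0.30 (2.10-fold lower, adjusted p = 0.0109). Egfl7, Icam2, Erg and Tek changed by -1.03, -0.86, -0.66 and -0.48, with adjusted p from 0.00189 to 0.0152. For 3 of these genes another probe gave a far smaller difference: Cav1 -0.10 (limma adjusted p over all probes = 0.452), Cdh5 -0.16 (adjusted p = 0.271) and Erg -0.13 (adjusted p = 0.158; above background on 9 arrays). Sox17 was at -0.18, -0.26, 0.08 and -0.12 at 3 weeks and at 0.72, 0.73 and 0.77 at 8 weeks, a rise of 0.86 ± 0.28 (1.81-fold, adjusted p = 0.0275). None of the 10 genes overlapped between the groups; 10 members did so in the lower and 3 in the higher direction (21.9% and 17.8% of all genes). Cd34, Emcn, Cav1 and Kdr also passed with the Y-linked covariate, where 4 members fell and 0 rose (shares of all genes not given). In the 8-week MuRF1 -/- hearts that covariate was 1.45, -0.81 and 1.34, and within the other groups it varied less. The adjustment thus rests largely on 8WK FENO replicate 2 and cannot separate the sex-linked difference from the time on fenofibrate. Sox17 lost its call without any 1 of 3WK FENO replicates 1 and 2 and the 3 8WK FENO hearts of its genotype, and Tek without 3WK FENO replicate 1 or 8WK FENO replicate 1. Without 8WK FENO MuRF1 +/+ replicate 2, the count was 14 lower and 3 higher (21.1% and 16.7% of all genes). The 3 higher were Klf2, Rasip1 and Sox17. Klf2 differed by 0.52 with all hearts, and its dimmer probe by 1.77 (limma adjusted p over all probes = 0.00125).

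In MuRF1 +/+ hearts the same contrast gave 9 higher and 0 lower (7.89% of all genes rose and 9.58% fell), with a median of 0.37 against 0.007 over all genes. The 8-week hearts lay above all 3-week hearts for 8 members and below for 0 (10.9% and 13.5% of all genes), and 21 had an unadjusted p under 0.05 (30.9%). Those higher were the transcription factors Klf2, Sox17 and Sox18, Rasip1, a GTPase regulator needed for vessel lumens, Notch4, Ramp2, Eng, Cldn5 and Lyve1, the hyaluronan receptor of lymphatic endothelium. The transcription factors and Rasip1 had 4 of 9 called, with a median of 0.77, and the 11 junction and surface proteins had 2 called, with a median of 0.3; without replicate 2 these medians were 0.11 and 0.1. Klf2 was at 0.01, 0.75, 0.52 and 0.42 at 3 weeks and at 1.57, 2.74 and 1.28 at 8 weeks, a rise of 1.44 ± 0.26 (2.71-fold, limma adjusted p = 0.000911). Sox17 was at -0.45, 0.08, -0.01 and -0.11 at 3 weeks and at 0.75, 2.51 and 0.66 at 8 weeks, a rise of 1.42 ± 0.28 (2.68-fold, adjusted p = 0.00211). All 8-week hearts lay above all 3-week hearts for both, with or without replicate 2.

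Ramp2, at 0.2, 0.24, 0.17 and 0.35 at 3 weeks, rose by 1.11 ± 0.23 (2.16-fold, adjusted p = 0.0027). Notch4, at -0.14, 0.55, 0.33 and 0.35 at 3 weeks and 1.03, 2.16 and 0.85 at 8 weeks, rose by 1.07 ± 0.23 (2.11-fold, adjusted p = 0.00401). Rasip1 was at 0, 0.53, 0.24 and 0.43 at 3 weeks and 0.78, 1.75 and 0.79 at 8 weeks, and Sox18 at -0.36, 0.36, 0.19 and 0.5 at 3 weeks and 0.71, 1.39 and 0.73 at 8 weeks; they rose by 0.80 ± 0.18 (adjusted p = 0.0054) and 0.77 ± 0.19 (adjusted p = 0.00916). These 6 genes, Klf2, Sox17, Sox18, Rasip1, Notch4 and Ramp2, kept their calls without any 1 heart, but without replicate 2 their rises were smaller. They were then 1.00 for Klf2 (adjusted p = 0.00151), 0.82 for Sox17 (adjusted p = 0.000222), 0.67 for Notch4 (adjusted p = 0.0124), 0.66 for Ramp2 (adjusted p = 0.00137), 0.55 for Sox18 (adjusted p = 0.0485) and 0.48 for Rasip1 (adjusted p = 0.0169). Cldn5, Eng and Lyve1 lost theirs without replicate 2 (0.47, 0.34 and 0.33, adjusted p from 0.117 to 0.139); Cldn5 also lost it without 3WK FENO replicate 1 or 3, Eng without 3WK FENO replicate 1 or 8WK FENO replicate 3, and Lyve1 without 3WK FENO replicate 2 or 4. Eng differed by -0.12 between the pair of hearts on 1 of 2 slides that held both groups.

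Without replicate 2, 6 members rose and 6 fell in MuRF1 +/+ (8.17% and 10.6% of all genes). The 6 that fell were Kdr (-0.99), Egfl7 (-0.89), Cd34 (-0.80), Emcn (-0.74), Icam2 (-0.63) and Erg (-0.41), with adjusted p from 0.000221 to 0.0415. All 6 were among the 9 that fell in MuRF1 -/-. Kdr, for example, was at 1.24 to 1.68 at 3 weeks and at 0.39 and 0.58 in the other 8-week hearts, but at 1.82 in replicate 2. Across the 41 genes the 8-versus-3-week differences of the genotypes, which share no heart, correlated with r = 0.76 (Pearson) with replicate 2. Without it r was 0.88 (0.6 and 0.82 across all genes). The same sign was found in 19 and then 30 members (46.3% and 73.2%), a smaller share than the 69.1% and 79.2% of all genes. With 8WK FENO replicate 1 or replicate 3 left out instead, 17 and 16 members rose in MuRF1 +/+ and 0 fell (shares of all genes not given). Fitted on only these 7 hearts, 1 member passed, Klf2.

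**Figure D4:**
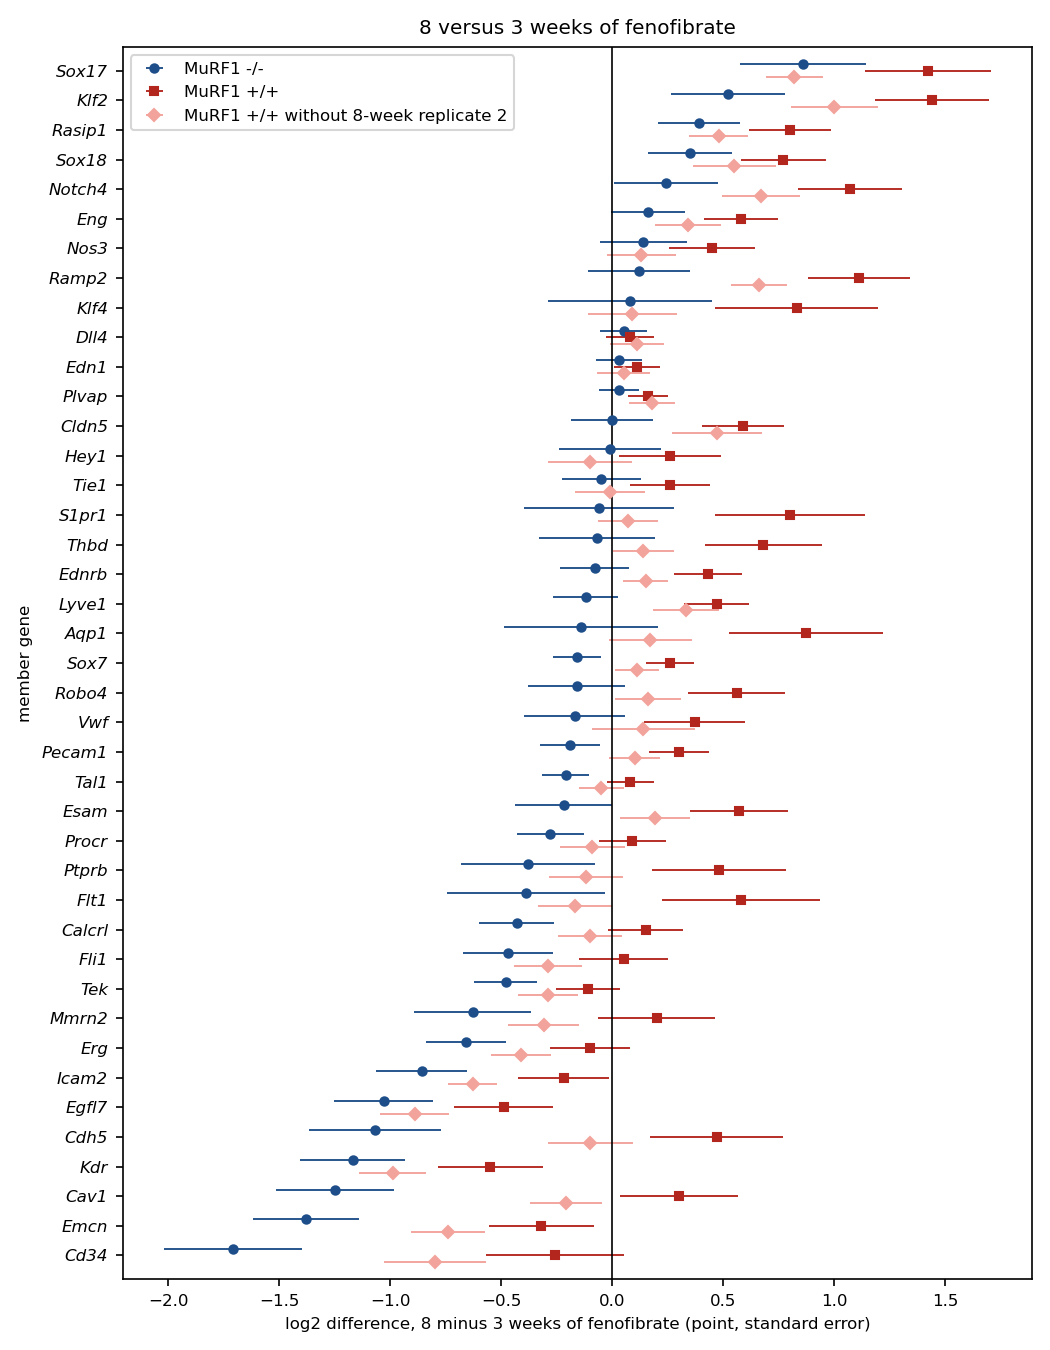
Difference between 8 and 3 weeks of fenofibrate (log2 ratio, with standard error) for the 41 endothelial genes, ordered by the MuRF1 -/- value, in MuRF1 -/- (circles), MuRF1 +/+ (squares) and MuRF1 +/+ without 8WK FENO replicate 2 (diamonds). Leaving out replicate 2 moves the MuRF1 +/+ values toward lower ones for most genes, with Kdr from -0.55 to -0.99 and Sox17 from 1.42 to 0.82.

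Set directly against each other at 8 weeks, MuRF1 -/- hearts were lower than MuRF1 +/+ hearts for 39 of 41 endothelial genes, with a median of -0.56 (-0.026 over all genes), but 0 passed the threshold by limma (0.0892% of all genes did) and 25 had an unadjusted p under 0.05, against 21.9% of all genes. The smallest adjusted p was 0.0695, for Cav1 (-1.24 ± 0.286). The MuRF1 -/- hearts lay below all MuRF1 +/+ hearts for 18 members and above for 0 (10% and 9.33% of all genes). Without replicate 2 the median was -0.14 and again 0 passed (0.0755% of all genes). Without 8WK FENO MuRF1 +/+ replicate 1, which leaves replicate 2 and 1 other heart, the count was 23 lower. It was 3 lower without that group's replicate 3, and 1 without 3WK FENO MuRF1 -/- replicate 4. For these counts, and for the 9 given below without 8WK FENO MuRF1 +/+ replicate 1, the shares of all genes are not given. They show only how the calls depend on single hearts. The differences of the 8-week responses between genotypes had a median of -0.56 with replicate 2 and -0.164 without it; 0 members passed in either case (0.00686% and 0% of all genes), 12 had an unadjusted p under 0.05 with replicate 2 (16.8% of all genes), and 9 passed, all lower, without 8WK FENO MuRF1 +/+ replicate 1. Without both arrays that stood apart, 1 member, Cav1, passed in both comparisons (0.199% and 0.0412% of all genes). With all hearts, the other probe of Cav1, above background on 20 arrays, differed by only -0.16 and -0.24 in them. It did not pass (limma adjusted p over all probes = 0.378 and 0.383). At 3 weeks 0 of 41 members differed between the genotypes (0.398% of all genes did), 1 had an unadjusted p under 0.05 (5.31% of all genes had), and the 95% intervals lay within -0.69 to 0.85.

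By the probe that stood for each gene, 17 of the 41 genes passed in none of the 11 comparisons: Pecam1, Flt1, Tie1, Nos3, Fli1, Sox7, Tal1, Klf4, Plvap, Calcrl, Ptprb, Mmrn2, Thbd, Edn1, Ednrb, Dll4 and Hey1. Other probes of 4 of these genes did pass (limma, adjusted over all probes). That of Sox7 rose by 0.62 at 3 weeks (adjusted p = 0.00541) and changed by -0.81 from 3 to 8 weeks (adjusted p = 0.000557) in MuRF1 -/-; there that of Fli1 by 0.54 and -0.52 (adjusted p = 0.0134 for both), and 1 of Ptprb, above background on 8 arrays, by 0.51 and -0.60 (adjusted p = 0.00106 and 0.000225). In MuRF1 +/+, those of Sox7 and Ptprb also rose at 3 weeks, by 0.47 and 0.45, and changed by -0.45 and -0.40 from 3 to 8 weeks, where the probe that stood for the gene had 0.26 and 0.48. That of Ednrb rose in MuRF1 +/+ at 8 weeks by 0.45 against chow (adjusted p = 0.0345) and 0.38 against 3 weeks (adjusted p = 0.0495). Among the 17 are the nitric oxide synthase Nos3, the endothelin gene Edn1 and its receptor Ednrb, the thrombin cofactor Thbd, Ptprb, the phosphatase that restrains Tek, and Plvap, which forms the diaphragms of fenestrae and caveolae. Dll4, a Notch ligand of arteries and sprouting cells, ranged from 0.11 to 0.69 over the 20 hearts (not well above background in the lowest), and Plvap from -0.82 to -0.32. In replicate 2 of the 8-week MuRF1 +/+ hearts, Plvap was -0.07, Dll4 -0.09 and Edn1 0.17 away from the mean of the other pair of hearts, where the median over the 41 genes was 1.09 and over all tested genes 0.04. Flt1 and Klf4 were each 2.23 above that mean, S1pr1 2.19 and Aqp1 2.1.

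Genes that signal to endothelium were taken from a list that excludes the 41. Of 26 tested at 3 weeks, 6 rose, 5 fell and 15 did not pass in MuRF1 +/+ (12% of all genes rose and 12.3% fell), and 7 rose, 4 fell and 15 did not pass in MuRF1 -/- (14.3% and 12.1%), with medians of 0.03 and 0.05. Epas1, the hypoxia-inducible factor HIF-2α, rose by 1.30 ± 0.18 (2.46-fold, limma adjusted p = 7.08e-05) and 1.35 ± 0.18 (2.56-fold, adjusted p = 3.46e-05). Nrp2, a co-receptor for vascular endothelial growth factors, rose by 0.97 and 1.10, and Aplnr, the apelin receptor, by 0.87 and 0.84. Acvrl1, the receptor that works with Eng, fell by 0.53 and 0.64 on the log2 scale, and Vegfb by 0.70 and 0.75. Of the same list, 9 fell and 4 rose from 3 to 8 weeks in MuRF1 -/- (18% and 13.5% of all genes). Among those that fell were Epas1 (-1.32) and Nrp2 (-1.47). In MuRF1 +/+ 5 fell, Epas1 by -1.01 among them, and 7 rose (9.58% and 7.89% of all genes). Without replicate 2, 7 fell and 4 rose (10.6% and 8.17%). At 8 weeks against chow, 2 rose and 1 fell in MuRF1 +/+ (5.26% and 8.74% of all genes). Without replicate 2 these counts were 0 and 2 (2.47% and 4%). In MuRF1 -/- 0 passed at 8 weeks (0.851% of all genes rose and 0.982% fell). Without replicate 2, 0 rose and 2 fell there (1.86% and 2.23%).

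Of 9 tested genes by which capillaries take up lipid, 5 rose and 0 fell in MuRF1 +/+ at 8 weeks (5.26% of all genes rose), with a median of 0.90. Without replicate 2, 4 rose (2.47% of all genes), with a median of 0.58. Gpihbp1, which anchors lipoprotein lipase on capillaries, rose by 1.15 ± 0.25 (2.22-fold, limma adjusted p = 0.00619; 0.68 without replicate 2, adjusted p = 0.00478). The fatty acid transporter Cd36 rose by 0.90 ± 0.20 (0.67 without replicate 2, adjusted p = 0.0457) and Car4, a carbonic anhydrase of capillaries, by 0.91 ± 0.20 (0.60 without it, adjusted p = 0.0229). Fabp4 and Timp4 rose by 1.27 and 1.10, with adjusted p of 0.212 and 0.166 without replicate 2. In MuRF1 -/- at 8 weeks 0 of the 9 passed (0.851% of all genes rose), with a median of 0.10. Without replicate 2, 2 rose there (1.86% of all genes). At 3 weeks, Lpl rose in MuRF1 +/+ (12% of all genes rose), and Meox2 and Gpihbp1 in MuRF1 -/- (14.3%). Of 10 tested genes that mark arteries, veins, endocardium or lymphatics, 2 rose at 8 weeks in MuRF1 +/+ (5.26% of all genes). These were Sema3g, an arterial guidance ligand, by 1.10 and Cytl1 by 0.80. Sema3g passed without replicate 2 (0.56, limma adjusted p = 0.0405). In MuRF1 -/- 0 of the 10 passed at 8 weeks and 1, Npr3, rose at 3 weeks (14.3% of all genes). In MuRF1 +/+ 0 passed at 3 weeks (12% of all genes rose and 12.3% fell).

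Marker lists of other cell types were read on the same arrays. The median of 10 fibroblast markers was -1.82 to -1.56 in MuRF1 +/+ chow hearts and -0.98 to -0.74 at 3 weeks. There 5 of 10 rose (12% of all genes). In MuRF1 -/- it was -1.78 to -1.13 on chow and -1.24 to -0.69 at 3 weeks, where 4 rose (14.3%). From 3 to 8 weeks in MuRF1 -/- it went to -1.97 to -1.77, and 5 of 10 fell (18% of all genes). The median of 10 pericyte and smooth muscle markers in MuRF1 -/- was -0.32 to -0.07 in the chow group, then -0.09 to 0.1 in the 3-week and -0.68 to -0.51 in the 8-week group, and 4 fell from 3 to 8 weeks, where 18% of all genes fell. At 3 weeks 1 of these 10 rose and 1 fell in MuRF1 +/+ (12% and 12.3% of all genes). In MuRF1 -/- 3 rose and 1 fell (14.3% and 12.1%). The median of 4 atrial markers was -2.61 to -2.25 in MuRF1 +/+ chow hearts and -1.61 to -1.18 at 3 weeks, and -2.44 to -2.26 and -2.68 to -0.62 in MuRF1 -/-. Of the 4, the myosin light chain Myl7 rose by 1.79 (limma adjusted p = 0.0134) in MuRF1 +/+ and the natriuretic peptide gene Nppa by 1.02 (adjusted p = 0.000982) in MuRF1 -/-. The median of 12 cardiomyocyte markers was 3.02 to 3.52 at 3 weeks and 1.33 to 3 at 8 weeks in MuRF1 -/-, the 1.33 being replicate 3; without that heart all 9 endothelial genes that fell kept their calls. Of the 12 cardiomyocyte markers, Ttn rose and Ckm and Actc1 fell at 3 weeks in MuRF1 +/+ (12% and 12.3% of all genes). In MuRF1 -/- these went the same way and Actn2 also fell (14.3% and 12.1%). At 8 weeks in MuRF1 +/+ Ttn rose and Actc1 fell (5.26% and 8.74%). Without replicate 2 only Actc1 passed (4% of all genes fell). The median of 9 macrophage and leukocyte markers lay between -0.37 and 0.43 in all groups. C1qa and C1qb, complement genes of macrophages, fell at 3 weeks in both genotypes, and Cd68 fell in MuRF1 -/-. That was 2 and 3 of the 9 (12.3% and 12.1% of all genes fell), and 0 rose. In replicate 2 of the 8-week MuRF1 +/+ hearts, the excess over the other pair of hearts had a median of 1.13 for fibroblast, 0.71 for pericyte and smooth muscle, 0.65 for atrial, 0.15 for cardiomyocyte and -0.15 for macrophage and leukocyte markers. The part of these cell types in the endothelial differences was not tested.

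**Figure D5:**
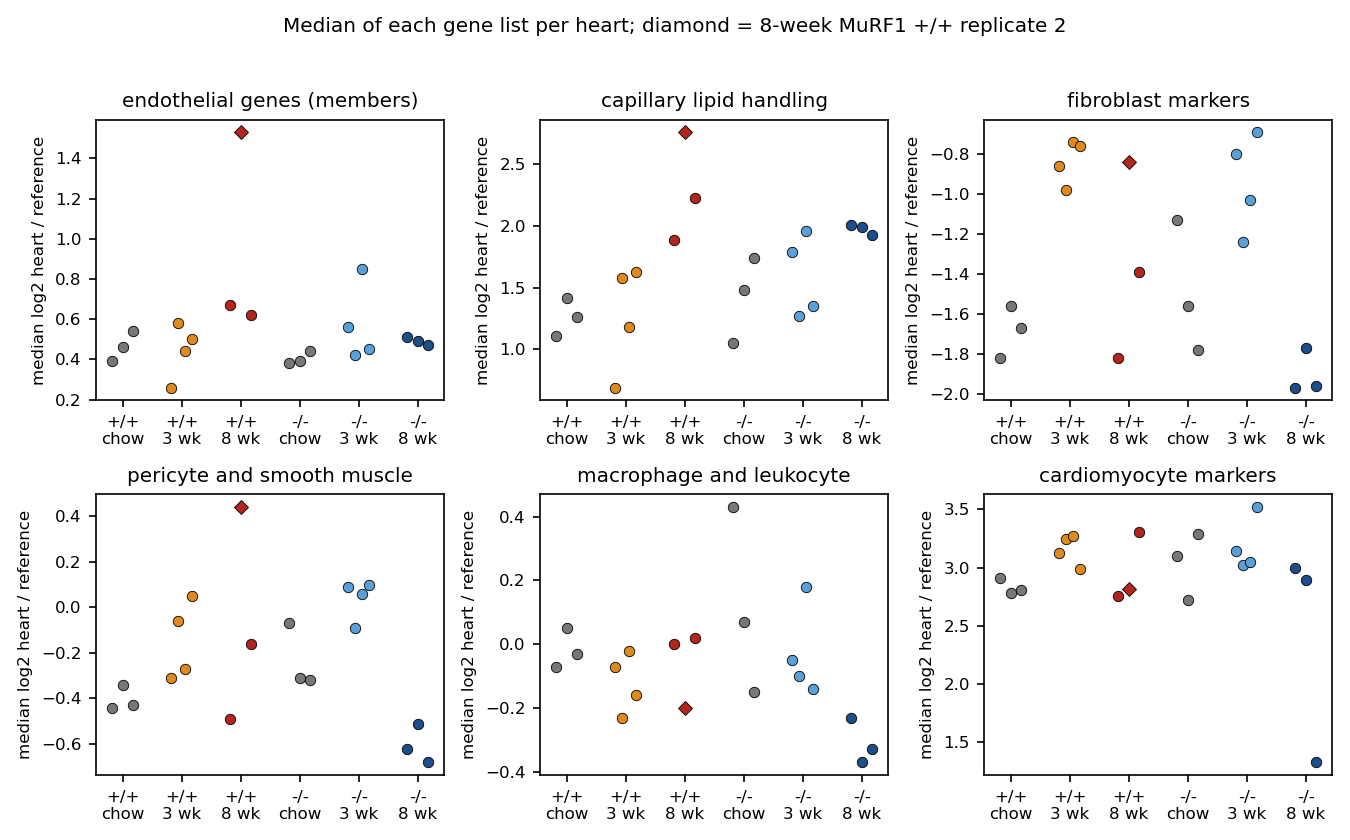
Median log2 ratio per heart (vertical axes with their own ranges) of the 41 endothelial genes and of the lists of capillary lipid handling genes and fibroblast, pericyte and smooth muscle, macrophage and leukocyte, and cardiomyocyte markers, by genotype and diet; the diamond is 8WK FENO MuRF1 +/+ replicate 2. That heart is the highest for the endothelial genes (1.53, against 0.67 and 0.62 in the other 8-week MuRF1 +/+ hearts), and the fibroblast medians are high at 3 weeks in both genotypes.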

How the data were processed

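Each array compared heart RNA, red (Cy5), with the pup pool, green (Cy3), per the labels; a labelling text there names only Cy3. The deposited mean and local background intensity values of each spot were made with Agilent Feature Extraction 9.5.3.1 from 5 micron scans of array design 014868, per the file headers. That program also made the log10 ratios, background-subtracted and dye-normalized, per the file headers. The authors' deposited table of log2 ratios has an unstated normalization: its columns had medians of -0.006 to 0.0091 and slopes of 0.328 to 0.784 against the ratios used here. The slope of 0.328 was that of CHOW MuRF1 -/- replicate 2 alone (correlation 0.713), and the others were 0.719 to 0.784. The authors' ratios and the log10 ratios served as alternatives.

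Background was corrected by normexp (offset 50), ratios were loess-normalized within arrays with limma 3.58.1 in R 4.3.3, and control spots and outlier spots were left out. A gene, named through its accession or symbol, was tested if well above background on 3 or more arrays. Of 41174 probes, the one with the brightest heart signal stood for each gene. One limma fit over all 20 arrays, with 6 group means, gave 11 comparisons, and Benjamini-Hochberg adjustment ran over 14567 genes; the script was tested on simulated data. Replicates are separate hearts, and their number limits the precision. Dyes were not swapped, so dye effects are shared by all hearts. Same-numbered hearts did not deviate together (correlations from -0.58 to 0.45, median -0.03, 46 pairs). Hearts of 1 slide did not either (-0.47 to 0.45, median -0.08); the headers of 4 arrays name another slide than expected and 4 name none.

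The members and lists were chosen with earlier results of these data known. Values were given in most detail for up to 15 members with the smallest adjusted p and the 3 with the widest spread of group means. So were those of 8 classic endothelial genes, except that for Flt1 and Tie1 only levels in some groups were given. Genes added after seeing values are said to be so. Alternatives covered background correction, the authors' values, the filter, the probe, slide and replicate as blocks, the samples fitted, a Y-linked covariate and leaving out arrays.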

Additional observations from a re-analysis of the deposited data

Results flagged for a closer look

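In groups of 4 hearts, 82 pairs of gene and group were examined for a heart far from its group, and 3 met the criterion, about as many as chance gives (about 1 in 20 groups). Ptprb was at 1.25 in 3WK FENO MuRF1 -/- replicate 2, where the other hearts of the group were at 1.85 to 1.93. Thbd was at 0.72 in 3WK FENO MuRF1 +/+ replicate 3, where the others were at 0.56. Hey1, a Notch target, was at 0.32 in the same heart, where the others were at -0.05 to 0.01. By the probe that stood for each gene, none of the 3 passed a test in any of the 11 comparisons.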

How the results depend on the processing

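Over 31 settings no call of an endothelial gene changed direction: under the alternatives 1133 values kept the call and 262 kept the direction but lost it. Values below are counts of members past the threshold. The shares of all genes past it in each setting are not given beside them. The counts thus show only how far the calls depend on the setting. At 8 weeks in MuRF1 +/+ the count was 0 with only the compared groups fitted, 0 with the Y-linked covariate and 5 without the 2 arrays that stood apart. At 3 weeks in MuRF1 +/+ it was 3 with normexp fitted on all spots, 2 with no filter on dim probes, 25 with only the compared groups, 0 with the Y-linked covariate and 22 without the 2 arrays. At 3 weeks in MuRF1 -/- it was 5 with normexp on all spots, 0 with the Y-linked covariate and 20 without the 2 arrays. At 8 weeks in MuRF1 -/- it was 8 with only the compared groups and 6 without the 2 arrays. For 8 versus 3 weeks it was 1 with only the compared groups in MuRF1 +/+ and 4 with the Y-linked covariate in MuRF1 -/-. Between genotypes at 8 weeks it was 1 with Agilent's ratio and 1 without the 2 arrays, and for the difference of the 8-week responses 1 without the 2 arrays. With the replicate block the count was 2 at 3 weeks in MuRF1 +/+, 5 at 3 weeks in MuRF1 -/- and 11 at 8 weeks in MuRF1 +/+; since the numbers do not pair the hearts, this says nothing of a weaker effect. Leaving out single replicates gave 2 to 26 at 8 weeks and 1 to 19 at 3 weeks in MuRF1 +/+, 0 to 4 and 2 to 20 in MuRF1 -/-, 7 to 17 and 8 to 17 for 8 versus 3 weeks in MuRF1 +/+ and MuRF1 -/-, 0 to 23 between genotypes at 8 weeks, 0 to 9 for the difference of the 8-week responses, and 0 to 0 for the genotypes on chow, at 3 weeks and the difference of the 3-week responses. The cause of these changes was not tested. Klf2 in MuRF1 +/+ and Cav1, Cd34, Emcn and Kdr in MuRF1 -/- kept their calls between 8 and 3 weeks in all 31 settings. Of 13 members with another measured probe, 16 of 16 called comparisons had the same sign there, but the size could be far smaller: between 8 and 3 weeks in MuRF1 -/- it was -0.10 for Cav1, -0.16 for Cdh5 and -0.13 for Erg, without a call, where the probes used gave -1.25, -1.07 and -0.66. Of the 41 members 39 were well above background on all 20 arrays, and 0 had a saturated spot.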
